A study of Mus musculus with 18 samples.

Results

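The genes of the Notch pathway described here, 10 of the 54232 rows of the read count table, were followed across dendritic cells (DCs) of the mouse intestine. They were chosen by name as the rows whose Ensembl identifier maps to the symbols Notch1, Notch2, Notch4, Dll1, Dll4, Jag1, Jag2, Rbpj, Hes1 and Dtx1. No threshold on their expression values was used, but the choice was made with earlier results of these data known. All 10 passed the filter on low counts. The data are 18 RNA sequencing libraries from C57BL/6J mice that lack CD11a, the integrin subunit encoded by Itgal, and this genotype was shared by every group. DCs labelled CD11b+, CD103+ or Double+ (here double-positive, DP) were taken from the small intestinal lamina propria (LP) or from the intestinal lymph node (LN), with 3 libraries in each of the 6 groups. The labels give no age, no number of mice per library and no treatment by library, so p-values measure the spread between libraries, which may be technical. No library from mice with intact Itgal was used here, so nothing below compares genotypes.

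Notch receptors are membrane proteins that are cut when they bind a Delta-like or Jagged ligand on a neighbouring cell. ADAM10 and the gamma-secretase complex release the intracellular part, which enters the nucleus, binds the DNA-binding protein RBPJ and recruits Mastermind-like coactivators to switch on target genes such as Hes1. In mice, Notch2 signalling through RBPJ is known to be needed for the CD103+ CD11b+ DCs of the intestine and for the ESAM-high DCs of the spleen. Ligands on DCs, Dll4 and Dll1 above all, are known in turn to be seen by T cells.

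Genes were compared with edgeR over all 18 libraries, and a gene is said to pass the test, or to rise or fall, at an adjusted p under 0.01 and a fold change over 2. The levels differed between groups for 9 of the 10 members (quasi-likelihood F test over the 6 groups, adjusted p of 2.07e-04 or less, and 0.0516 for Notch1). The share of all genes that differed by this test was not counted, so this number is not a result particular to the members. The ligands Dll1, Dll4 and Jag1 and the target Dtx1 were higher in LN than in LP within each of the 3 subsets. Jag2 marked the CD103+ subset in both tissues. Hes1, the classical target, was low in both groups of DP cells, and was low in CD103+ cells of the LN but not in those of the LP. Notch2, the receptor with the highest level per kilobase of exon of the 3 receptors, was flat across the LP subsets. Notch1 passed the test in no comparison.

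In the GRCm38 build (GENCODE vM21) all 10 are annotated as protein-coding genes. The receptor genes are Notch1 (ENSMUSG00000026923) at chr2:26457903-26516663, Notch2 (ENSMUSG00000027878) at chr3:98013527-98150361 and Notch4 (ENSMUSG00000015468) at chr17:34564268-34588503. The ligand genes are Dll1 (ENSMUSG00000014773) at chr17:15367354-15376872, Dll4 (ENSMUSG00000027314) at chr2:119325784-119335962, Jag1 (ENSMUSG00000027276) at chr2:137081456-137116644 and Jag2 (ENSMUSG00000002799) at chr12:112907819-112929776. The nuclear partner and the targets are Rbpj (ENSMUSG00000039191) at chr5:53466152-53657362, Hes1 (ENSMUSG00000022528) at chr16:30064384-30067796 and Dtx1 (ENSMUSG00000029603) at chr5:120680202-120711927.

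The stretches upstream of 4 members are shown because these genes carry the contrasts described here. Dll4 and Jag1 rose in LN in every subset, Notch2 is the receptor these DCs are known to use, and Rbpj is the only member with the RBPJ core motif in its window. Sequences are from RefSeq (GRCm38.p6), read on the strand of the gene and limited to bases outside annotated exons, within 250 bases upstream of a start site. Capitals mark a match to the κB motif in Dll4 and Notch2 and to the RBPJ core motif (TGGGAA, or TTCCCA on the other strand) in Rbpj. The Jag1 stretch has no match. They lie at chr2:119325565-119325783 (plus strand, Dll4), chr2:137116645-137116770 (minus strand, Jag1), chr3:98013288-98013526 (plus strand, Notch2) and chr5:53590096-53590213 (plus strand, Rbpj).
Dll4: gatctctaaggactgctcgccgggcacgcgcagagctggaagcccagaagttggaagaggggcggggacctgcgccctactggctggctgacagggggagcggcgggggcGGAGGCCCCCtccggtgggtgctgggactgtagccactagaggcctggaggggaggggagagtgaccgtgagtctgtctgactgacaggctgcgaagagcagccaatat
Jag1: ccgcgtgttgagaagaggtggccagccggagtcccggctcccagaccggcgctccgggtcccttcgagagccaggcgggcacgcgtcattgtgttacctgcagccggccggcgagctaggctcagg
Notch2: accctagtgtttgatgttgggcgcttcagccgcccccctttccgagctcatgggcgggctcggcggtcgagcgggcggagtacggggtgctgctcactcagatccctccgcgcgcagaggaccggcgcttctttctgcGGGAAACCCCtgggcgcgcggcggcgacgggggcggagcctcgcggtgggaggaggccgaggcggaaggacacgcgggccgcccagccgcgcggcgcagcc
Rbpj: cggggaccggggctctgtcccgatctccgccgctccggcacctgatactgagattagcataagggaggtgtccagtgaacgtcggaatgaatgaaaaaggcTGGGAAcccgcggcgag

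Windows were found for 9 of the 10 members (11 windows, Hes1 has none). On both strands, the RBPJ core was found in 2 windows, both of Rbpj, and it was found in 21.59% of all 32851 windows of 250 bases. The 2 Rbpj windows overlap and share the match on the minus strand, so the second adds no new site. The κB motif was found in windows of 4 members (Notch2, Notch4, Dll1 and Dll4), and in 7.25% of all windows. The motifs can share letters, but no member window held both. A match is a description of the letters and not a measured binding site.

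Total counts ran from 23574292 to 46901985 per library, so 1 read was worth 0.0215 to 0.0475 CPM (the count scaled by library size and TMM factor). A list of 6 DC genes summed to 29080 to 77810 CPM, with all 6 at 1 CPM or more in every group. Itgam (CD11b) and Itgae (CD103) were read as checks of the labels, and in LP Itgam followed them. Itgam was 55.3 to 76.4 CPM in LP CD11b+ and LP DP against 0.601 to 1.26 in LP CD103+, and Itgae was 1238 to 1440 CPM in LP CD103+. In LN both were lower, with Itgam at 4.85 to 5.76 CPM and Itgae at 41.1 to 49.1 CPM in LN DP. A list of 6 type 2 conventional DC genes summed to 2669 to 3089 CPM in LP DP and 242 to 290 in LN DP. It summed to 991 to 1428 CPM in LN CD11b+ and 62.2 to 73.4 in LN CD103+. A list of 6 type 1 conventional DC genes summed to 978 to 1127 CPM in LP DP and 969 to 1151 in LN DP. It summed to 563 to 623 CPM in LN CD11b+ and 2009 to 2086 in LN CD103+. Whether the DP label holds like cells in both tissues was not tested. Itgal itself was read at 6.45 to 26.6 CPM in every library, which with no library from intact mice is no check of the knockout. LP libraries carried the Y-linked Ddx3y (50.04 to 74.4 CPM) with Xist no higher than 0.286 CPM, whereas Xist in LN libraries was 15.4 to 89.1 CPM. The tissue and the sex of the mice therefore cannot be told apart. The third LN CD11b+ and the third LN DP library carried both transcripts, and results that change without them are named where they stand. A list of 12 T cell genes summed to 11.2 to 47.6 CPM in LP and to 847 to 1387 CPM in LN, with 7 to 9 genes of the list at 1 CPM or more in the LP groups and all 12 in the LN groups. A list of 9 B cell genes summed to 14.9 to 70.5 CPM in LP and 42.7 to 175.0 CPM in LN, with Pax5 at 0 in LP DP. In bulk libraries, fewer cells of a type and less RNA per cell cannot be told apart.

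**Figure D1:**
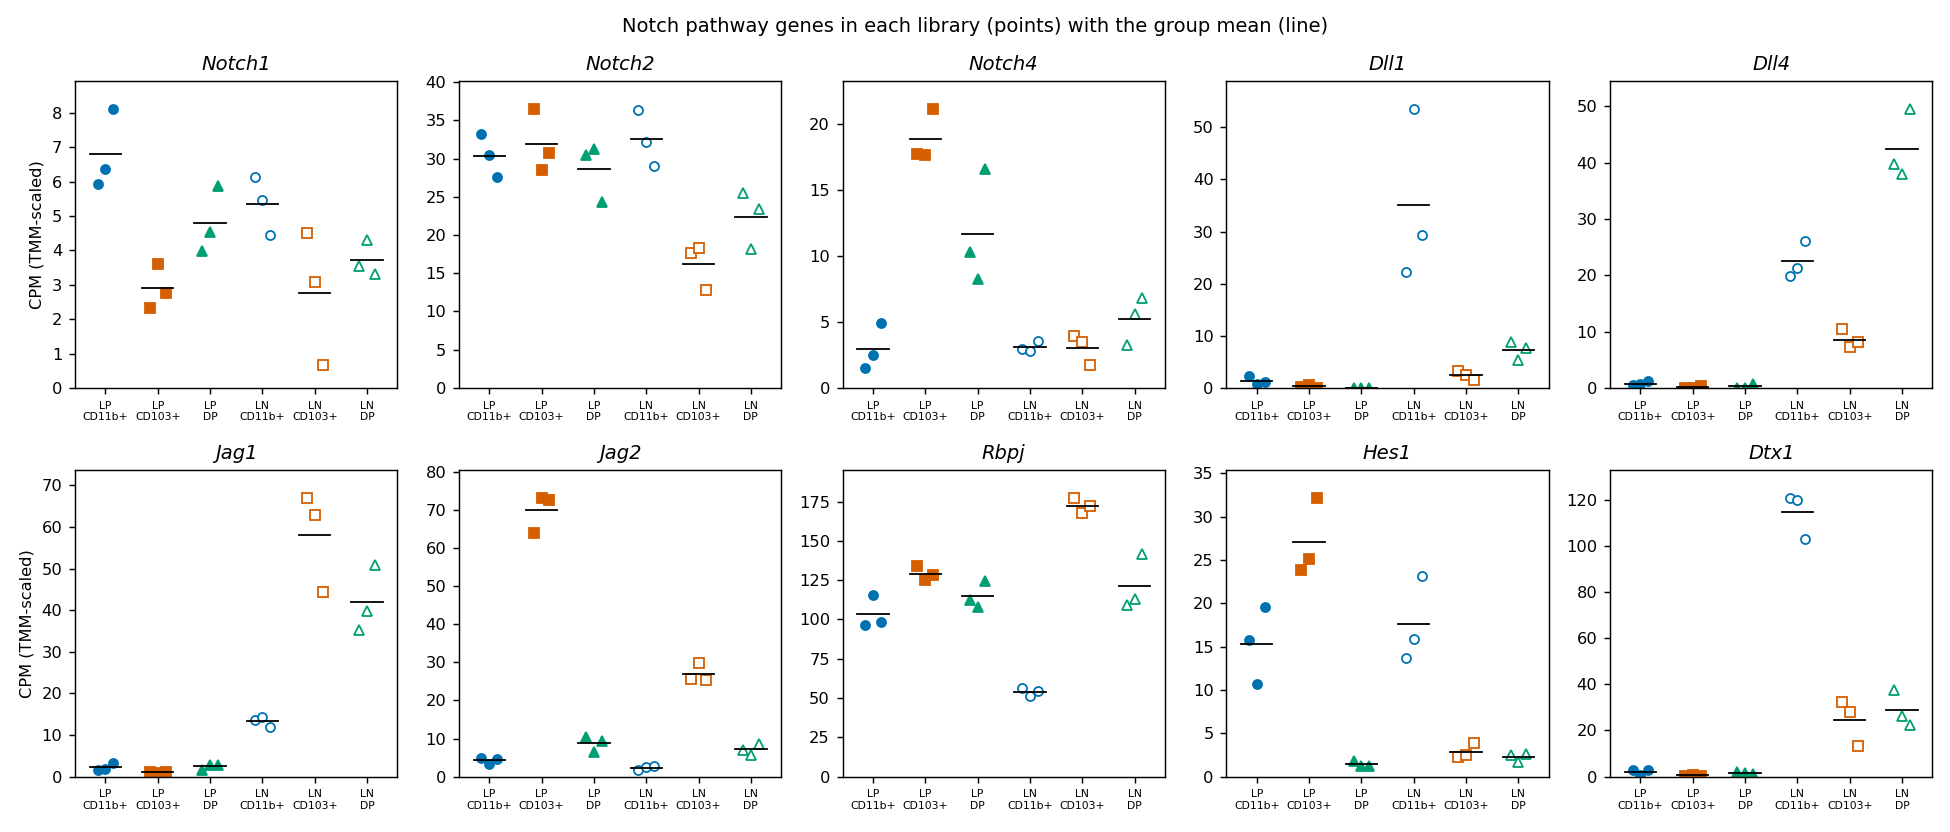
Level of each of the 10 genes in every library, in TMM-scaled CPM on linear axes that start at 0, with 1 point for each library and a line at the mean of the 3 libraries of a group. Dll1, Dll4, Jag1 and Dtx1 sit near 0 in LP and are higher in LN, Jag2 is highest in LP CD103+ (64.0 to 73.3 CPM), and Hes1 is at 1.19 to 3.86 CPM in LP DP, LN CD103+ and LN DP.

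Of the receptors, Notch2 differed least between the LP subsets. It measured 33.2, 30.4 and 27.5 CPM in LP CD11b+, 36.5, 28.5 and 30.7 in LP CD103+ and 30.5, 31.2 and 24.3 in LP DP. In LN it measured 36.4, 32.2 and 29.0 CPM in CD11b+, 17.6, 18.3 and 12.8 in CD103+ and 25.5, 18.2 and 23.4 in DP. The 3 LP groups and LN CD11b+ overlapped, and LN CD103+ lay below all of them. LN CD103+ was lower than LN CD11b+ by a log2 fold change of -1.01 (SE 0.16, adjusted p = 6.32e-05), only just past the 2-fold limit. Against LP CD103+ the log2 fold change was -0.98 (SE 0.16, adjusted p = 6.29e-05), just short of that limit. The first call was lost without LN CD11b+ replicate 1 (-0.96) or LN CD103+ replicate 3 (-0.88), with DESeq2 or its size factors (-0.96 each) and with only the groups compared (-0.98). The second was gained in 7 of the 18 fits that left out 1 library (log2 -1.03 to -1.09), without a filter on low counts (-1.03) and with total counts (-1.20). In the LP the DP cells, which are known to depend on Notch2, differed from CD11b+ by -0.09 (95% confidence interval -0.43 to 0.25) and from CD103+ by -0.15 (-0.49 to 0.19).

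Notch4 was the receptor with a subset pattern. Its levels were 1.47, 2.49 and 4.93 CPM in LP CD11b+, 17.8, 17.7 and 21.2 in LP CD103+ and 10.3, 8.24 and 16.6 in LP DP. In LN they were 2.92, 2.82 and 3.53 CPM in CD11b+, 3.94, 3.46 and 1.75 in CD103+ and 3.24, 5.62 and 6.79 in DP. LP CD103+ was highest, LP DP came next without overlap, and the remaining groups overlapped one another in a row. In LP, CD103+ exceeded CD11b+ by a log2 fold change of 2.66 (SE 0.41, adjusted p = 6.71e-05) and DP exceeded CD11b+ by 1.98 (SE 0.40, adjusted p = 0.00311). The latter call was lost without LP CD11b+ replicate 1 or 2 or LP DP replicate 3 (log2 1.64 to 1.87, adjusted p 0.0155 to 0.0206). From LP to LN, Notch4 fell by 2.63 on the log2 scale in CD103+ cells (SE 0.41, adjusted p = 3.34e-05), while the difference in DP cells was -1.17 (adjusted p = 0.0170) and in CD11b+ cells 0.06 (adjusted p = 0.929). The DP difference passed the test without LP CD11b+ replicate 1 or 3 (adjusted p = 0.00892 and 0.00671).

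Notch1 was low everywhere, with 5.92, 6.37 and 8.12 CPM in LP CD11b+, 2.33, 3.59 and 2.77 in LP CD103+ and 3.99, 4.54 and 5.89 in LP DP. The LN groups read 6.15, 5.45 and 4.46 CPM (CD11b+), 4.52, 3.08 and 0.657 (CD103+) and 3.55, 4.29 and 3.33 (DP). Each group overlapped the next in order of mean. The largest difference was that of LP CD103+ against LP CD11b+, at -1.23 on the log2 scale (SE 0.42, adjusted p = 0.0315). The replicate numbers were seen to pair the LP CD11b+ and LP CD103+ libraries, and with the replicate block the same difference passed the test (adjusted p = 0.00212). It also passed without LN CD103+ replicate 3, the library with the lowest Notch1 (adjusted p = 9.05e-04). LN CD103+ against LN CD11b+ passed without LN CD103+ replicate 1 (log2 -1.53, adjusted p = 0.00979) and stood at -0.96 (adjusted p = 0.0681) with it. The remaining receptor, Notch3, was near the detection limit, at 0.766 CPM or less in every library.

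Among ligands, Dll4 held 1 to 36 reads per library in LP. In LN DP its mean level per length was the highest of any member. In LP it measured 0.431, 0.732 and 1.14 CPM in CD11b+, 0.0354, 0.0215 and 0.286 in CD103+ and 0.0373, 0.0678 and 0.678 in DP cells, down to 1 read in a library. In LN it measured 19.8, 21.4 and 26.1 CPM in CD11b+, 10.4, 7.21 and 8.15 in CD103+ and 39.8, 38.0 and 49.5 in DP. No LN library overlapped an LP library, and the LN groups did not overlap one another either, in the order DP, CD11b+, CD103+. The log2 fold change of LN against LP was 4.85 in CD11b+ (SE 0.55, adjusted p = 3.47e-06), 6.44 in CD103+ (SE 0.69, adjusted p = 4.59e-07) and 7.32 in DP (SE 0.64, adjusted p = 4.31e-08). The folds in CD103+ and DP rest on 9 and 22 LP reads over 3 libraries, so their size is loose: without LP CD103+ replicate 2 or 3 the first was 5.75 or 8.08, and without LP DP replicate 3 the second was 9.53. Of the LN subsets, DP exceeded CD103+ by 2.30 on the log2 scale (SE 0.47, adjusted p = 0.00160), and this call was lost without LN CD103+ replicate 2 (2.20, adjusted p = 0.0106) and without the libraries that carry both Xist and Ddx3y (2.18, adjusted p = 0.0146). The other LN differences of Dll4 did not pass, at -1.38 for CD103+ against CD11b+ (adjusted p = 0.0172) and 0.92 for DP against CD11b+ (adjusted p = 0.109). The former passed without LP CD103+ replicate 3 or LP DP replicate 3 (adjusted p = 0.00817 and 0.00193).

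Dll1 was highest in LN CD11b+, at 22.2, 53.5 and 29.4 CPM. LN DP read 8.83, 5.27 and 7.65 CPM and LN CD103+ 3.19, 2.49 and 1.53. In LP the levels were 2.33, 0.659 and 1.07 CPM in CD11b+, 0.248, 0.581 and 0 in CD103+ and 0.0745, 0 and 0.0714 in DP. LN exceeded LP without overlap in each subset. Dll1 rose by a log2 fold change of 4.69 in CD11b+ (SE 0.63, adjusted p = 2.13e-05), 2.94 in CD103+ (SE 0.66, adjusted p = 0.00100) and 7.12 in DP (SE 0.87, adjusted p = 2.29e-06), the last against 4 reads in all 3 LP DP libraries. The value was 5.32 in CD11b+ without LP CD11b+ replicate 1 and 4.14 in CD103+ without LP CD103+ replicate 2. Within LN, Dll1 was lower in CD103+ than in CD11b+ (log2 -3.86, SE 0.61, adjusted p = 4.41e-05) and lower in DP than in CD11b+ (log2 -2.27, SE 0.56, adjusted p = 0.00333). The latter was lost without LN CD11b+ replicate 2, the highest library, or without LN DP replicate 2 or 3 (log2 -1.86 to -2.33, adjusted p 0.0131 to 0.0254), and without the libraries with both Xist and Ddx3y (adjusted p = 0.0225). The exons of Dll1 share 20.5% of their length with A930024N18Rik on the opposite strand. Counting without strand is stated for the study's own DC libraries. If it was used here too, reads in that stretch cannot be assigned. A930024N18Rik held at most 10 reads in a library.

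Jag1 rose with tissue in every subset, but to different heights. It measured 1.62, 1.72 and 3.35 CPM in LP CD11b+, 1.06, 0.753 and 1.18 in LP CD103+ and 1.68, 2.88 and 2.82 in LP DP. In LN it measured 13.6, 14.4 and 11.8 CPM in CD11b+, 67.0, 62.8 and 44.4 in CD103+ and 35.2, 39.8 and 50.7 in DP. LN CD103+ and LN DP overlapped each other and lay above LN CD11b+, which lay above all LP libraries. The log2 rise was 2.56 in CD11b+ (SE 0.28, adjusted p = 2.02e-06), 5.89 in CD103+ (SE 0.32, adjusted p = 9.28e-11) and 4.09 in DP (SE 0.29, adjusted p = 3.26e-09). The rise in CD103+ exceeded that in CD11b+ by 3.32 on the log2 scale (SE 0.40, adjusted p = 5.02e-06), which makes CD103+ the lowest subset for Jag1 in LP and the highest by mean in LN. In LP, CD103+ lay below CD11b+ by a log2 fold change of -1.19 (SE 0.31, adjusted p = 0.00545) and below DP, where DP against CD103+ gave 1.33 (SE 0.31, adjusted p = 0.00261). With the replicate block both LP calls were lost (adjusted p = 0.0284 and 0.0161). They were also lost without LP CD103+ replicate 2 (log2 -0.99 and 1.13), the first without LP CD11b+ replicate 3 (-0.77) or LP CD103+ replicate 1 (-1.25) and the second without LP DP replicate 2 or 3 (1.20 and 1.22).

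Jag2 was highest in CD103+ cells of both tissues. LP CD103+ read 64.0, 73.3 and 72.5 CPM and LN CD103+ 25.6, 29.8 and 25.4, above every library of the other groups. LP DP read 10.5, 6.44 and 9.42 CPM, LN DP 7.11, 5.65 and 8.60, LP CD11b+ 4.95, 3.37 and 4.55 and LN CD11b+ 1.64, 2.43 and 2.83. The DP groups of both tissues overlapped each other and lay above both CD11b+ groups. CD103+ exceeded CD11b+ by a log2 fold change of 4.02 in LP (SE 0.23, adjusted p = 8.40e-10) and 3.55 in LN (SE 0.23, adjusted p = 1.73e-09). DP lay between them, above CD11b+ by 1.03 in LP (SE 0.22, adjusted p = 0.00366) and 1.63 in LN (SE 0.23, adjusted p = 1.91e-05), and below CD103+ by -2.99 in LP and -1.92 in LN on the same scale (adjusted p = 1.40e-08 and 5.39e-06). The difference of 1.03 was lost without LP CD11b+ replicate 2 or LP DP replicate 1 or 3 (0.88 to 0.98) and with total counts as the scaling (0.97). Unlike the other ligands, Jag2 fell from LP to LN in CD103+ cells, with a log2 fold change of -1.38 (SE 0.21, adjusted p = 1.86e-05). The change was -0.90 in CD11b+ (adjusted p = 0.00465, short of the 2-fold limit) and -0.31 in DP (adjusted p = 0.223). In CD11b+ it passed the fold limit without LP CD11b+ replicate 2 (-1.05), without LN CD11b+ replicate 3 (-1.08) and without the libraries with both Xist and Ddx3y (-1.07).

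Beside the rise of Dll4 and Jag1, which endothelium also uses, a list of 11 endothelial genes summed to 62.7 to 134 CPM in LP and 154 to 234 CPM in LN. The higher sum in LN was carried by Esam, which is also a Notch2-dependent DC gene. The other 10 genes summed to 77.4 to 89.1 CPM in LP CD11b+ and 88.3 to 94.9 in LN CD11b+. They summed to 42.9 to 50.8 CPM in LP CD103+ against 18.01 to 28.5 in LN CD103+, and to 104 to 115 CPM in LP DP against 21.6 to 26.5 in LN DP. Of these 10 genes, 6, 3 and 2 had a mean of 1 CPM or more in LP CD11b+, LP CD103+ and LP DP. In the same subsets of LN, 5, 4 and 5 did. In CD103+ and DP the sums were thus lower in LN and the counts of genes higher. The part of endothelial RNA in the levels of Dll4 and Jag1 was not tested. Emcn was at 0 in all LN libraries, Tie1 was at 0 in LN CD11b+ and LN CD103+, and Prox1 was at 0 in LN CD103+, LP CD11b+ and LP DP.

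Rbpj, the DNA-binding partner of the cleaved receptor, was read well above the detection limit in all groups. LP CD11b+ measured 96.6, 115 and 98.1 CPM, LP CD103+ 134, 125 and 128 and LP DP 112, 108 and 124. LN CD11b+ measured 56.4, 51.1 and 54.7 CPM, LN CD103+ 178, 168 and 172 and LN DP 109, 113 and 142. LN CD11b+ was thus below and LN CD103+ above every other library. In LN, CD103+ exceeded CD11b+ by a log2 fold change of 1.67 (SE 0.10, adjusted p = 5.11e-10) and DP exceeded CD11b+ by 1.17 (SE 0.10, adjusted p = 7.67e-08). With total counts the second value was 0.80, short of the 2-fold limit. In LP the largest difference between subsets was 0.32 (CD103+ against CD11b+, adjusted p = 0.0141). From LP to LN, Rbpj moved by -0.94 in CD11b+ (SE 0.10, adjusted p = 1.31e-06) and by 0.42 in CD103+ (SE 0.10, adjusted p = 0.00116), both short of the 2-fold limit, and by 0.08 in DP (adjusted p = 0.492), which was -0.10 with total counts.

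Hes1 encodes a transcriptional repressor and is the most widely used readout of Notch signalling. It measured 15.8, 10.7 and 19.6 CPM in LP CD11b+, 23.9, 25.1 and 32.2 in LP CD103+ and 1.83, 1.19 and 1.21 in LP DP. In LN it measured 13.7, 15.9 and 23.1 CPM in CD11b+, 2.28, 2.45 and 3.86 in CD103+ and 2.5, 1.64 and 2.61 in DP. The 6 groups fell into a high set (LP CD103+, and the overlapping CD11b+ groups of both tissues) and a low set (LN CD103+, LN DP and LP DP, which overlapped in that order). In LP, DP lay below CD11b+ by -3.45 (SE 0.31, adjusted p = 2.05e-06) and below CD103+ by -4.26 (SE 0.32, adjusted p = 1.76e-08) on the log2 scale. In LN, CD103+ and DP lay below CD11b+ by -2.62 (SE 0.29, adjusted p = 1.13e-06) and -2.97 (SE 0.30, adjusted p = 6.47e-07). From LP to LN it fell by 3.24 on the log2 scale in CD103+ (SE 0.30, adjusted p = 7.26e-08), against 0.19 in CD11b+ (adjusted p = 0.611) and 0.67 in DP (adjusted p = 0.0683). All 5 of these calls were kept in each of the 18 fits that left out 1 library. Epithelium is another tissue that uses Hes1. A list of 11 epithelial genes summed to 580 to 863 CPM in LP DP and to 69.5 to 615 CPM in the other LP groups. In LN it summed to 40.3 to 50.1 CPM in CD11b+, 28.6 to 36.6 in CD103+ and 67.6 to 72.6 in DP. The part of this list in the levels of Hes1 was not tested.

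Dtx1 encodes the ubiquitin ligase Deltex1, a Notch target and regulator in lymphocytes. LN CD11b+ measured 121, 120 and 103 CPM, LN CD103+ 32.5, 28.1 and 13.1 and LN DP 37.6, 26.4 and 22.2. LP libraries measured 2.66, 0.659 and 3.0 CPM in CD11b+, 0.354, 0.710 and 0.367 in CD103+ and 1.79, 1.66 and 1.18 in DP. Every LN library was above every LP library, and LN CD11b+ was above the other LN groups, which overlapped. The log2 rise was 5.75 in CD11b+ (SE 0.44, adjusted p = 5.15e-08), 5.59 in CD103+ (SE 0.48, adjusted p = 3.19e-08) and 4.22 in DP (SE 0.43, adjusted p = 2.87e-07). In LN, CD103+ and DP lay below CD11b+ by -2.22 (SE 0.37, adjusted p = 7.39e-05) and -2.00 (SE 0.36, adjusted p = 2.77e-04). In LP, CD103+ lay below CD11b+ by -2.06 (SE 0.51, adjusted p = 0.00418). That LP call was lost with the replicate block (adjusted p = 0.0311) and without LP CD11b+ replicate 1 or 3 or LP CD103+ replicate 1 or 3 (log2 -1.70 to -1.91, adjusted p 0.0190 to 0.0285). Lymphocyte genes moved with tissue too. The T cell list summed to 847 to 1243 CPM in LN CD11b+, where Dtx1 was highest, and to 1022 to 1387 CPM in the other LN groups. The B cell list summed to 125 to 175.0 CPM in LN CD11b+ and to 42.7 to 71.7 CPM in the other LN groups, so that it was highest where Dtx1 and Dll1 were highest. A list of 5 plasma cell genes, all at 1 CPM or more in LN CD11b+, summed to 1217 to 1347 CPM there and to 191 to 508 CPM in the other LN groups. It summed to 1429 to 1828 CPM in LP CD11b+, where Dtx1 and Dll1 were low, and to 254 to 475 CPM in the other LP groups. A list of 10 macrophage genes, all at 1 CPM or more in both CD11b+ groups, summed to 294 to 500 CPM in LN CD11b+ against 14.0 to 84.3 in the other LN groups, and to 732 to 1513 CPM in LP CD11b+ against 42.0 to 357 in the other LP groups. Both lists thus moved with the CD11b+ label in each tissue, and with every contrast of CD11b+ against CD103+ or DP given here. The part of these lists in the levels of the members was not tested.

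**Figure D2:**
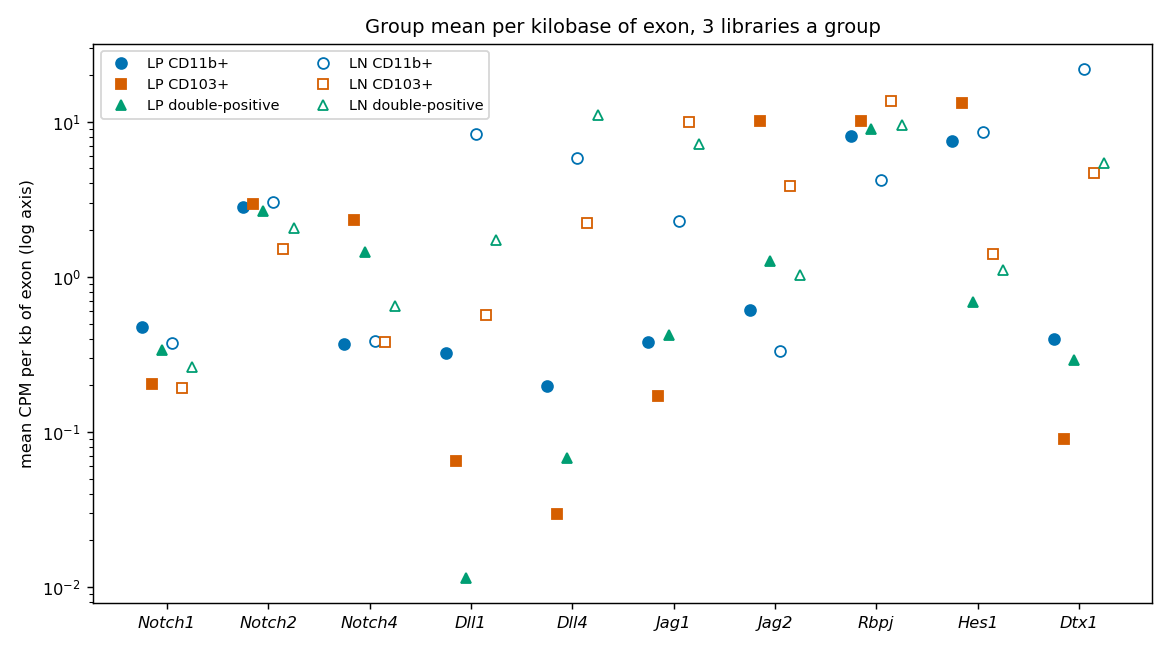
Mean CPM per kilobase of annotated exon for each gene and group (3 libraries a group, log axis, LP filled, LN open). Rbpj holds 4.24 to 13.5 in all groups, while Dll4 spans 0.0296 (LP CD103+) to 11.02 (LN DP).

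Levels per kilobase of exon allow a rough comparison between genes. The length is that of all annotated exons of a gene together, which can exceed that of any single transcript and lower the value. On this scale Rbpj led in LP CD11b+ (8.11 CPM per kb) and LP DP (9.01) and Hes1 led in LP CD103+ (13.3). Dtx1 led in LN CD11b+ (21.8), Rbpj in LN CD103+ (13.5) and Dll4 in LN DP (11.02). These are orders of the means, and 2 of the leaders overlapped the next gene. In LP CD11b+ the libraries ran from 7.58 to 9.05 CPM per kb for Rbpj and 5.25 to 9.60 for Hes1, and in LN DP from 9.87 to 12.9 for Dll4 and 8.59 to 11.1 for Rbpj. Notch2 was above Notch1 and Notch4 in all 6 groups, with mean levels of 1.5 to 3.02 CPM per kb against 0.193 to 0.478 for Notch1. In LP CD103+ the distance between Notch2 (2.96) and Notch4 (2.34) was small. Of the ligands, Jag2 led by mean in all 3 LP groups, though in LP CD11b+ its libraries overlapped those of Jag1 and Dll1, and Dll1 (8.31), Jag1 (9.97) and Dll4 (11.02) led in LN CD11b+, LN CD103+ and LN DP in turn. The leading ligand per length therefore differed between all 3 LN subsets, although in LN CD11b+ Dll1 (SD 3.89) was within its spread of Dll4 (5.83).

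Counted as a set, 4 of the 10 genes passed the test in LN against LP CD11b+ cells, all higher in LN, where 15.2% of the 17074 genes tested passed, 10.3% higher and 4.93% lower. In CD103+ cells 7 passed, 4 higher and 3 lower, where 35% of all genes passed, 19.8% higher and 15.1% lower. In DP cells 4 passed, all higher, where 32.1% passed, 18.6% higher and 13.6% lower. The median log2 fold change of the 10 was 0.15, 0.17 and 0.38 in the 3 subsets, against 0.03, 0.04 and 0.07 over all genes. With total counts the CD103+ split over all genes turned from 3386 higher and 2586 lower to 2899 and 3231. The same 4 genes (Dll1, Dll4, Jag1 and Dtx1) rose in every subset, also in each of the 18 fits that left out 1 library. The share of all genes that rose in all 3 subsets was not counted. The genes that fell in CD103+ cells were Notch4, Jag2 and Hes1.

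**Figure D3:**
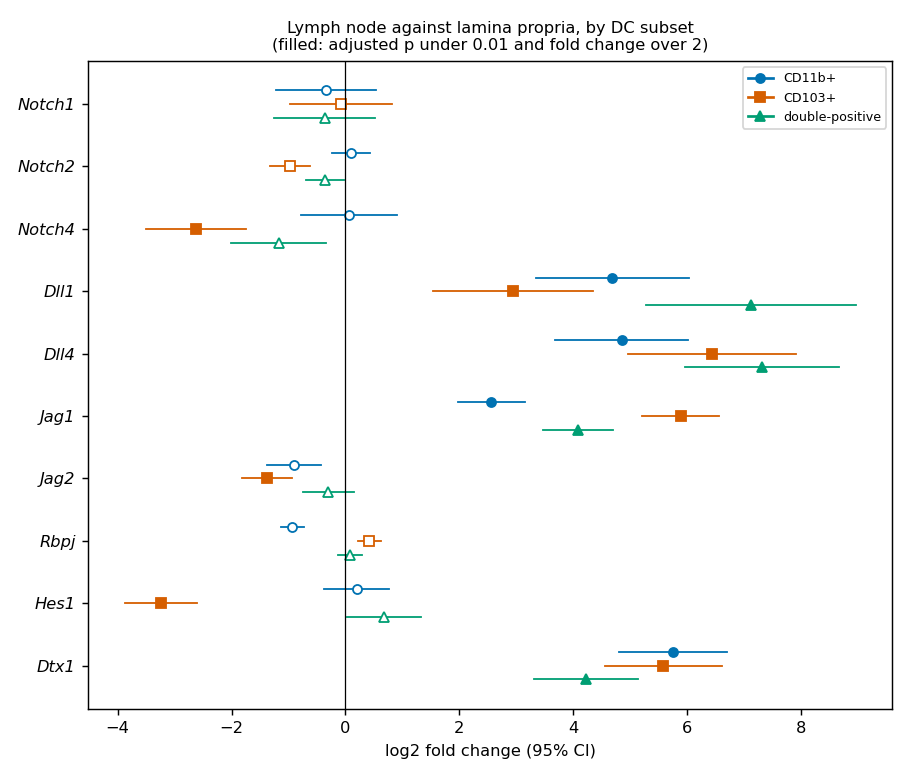
Log2 fold change of LN against LP with its 95% confidence interval for each gene and subset, filled where the gene passed the test. Dll1, Dll4, Jag1 and Dtx1 lie right of 0 in all subsets (2.56 to 7.32), and the filled points left of 0 are Notch4, Jag2 and Hes1 in CD103+ cells (-2.63, -1.38 and -3.24).

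Whether the tissue effect, the log2 difference of LN against LP, differed between subsets was tested directly, at an adjusted p under 0.01 with no fold limit. It differed over the 3 subsets for 5 of the 10 genes (F test), where 31.5% of all genes passed. These were Rbpj (adjusted p = 1.60e-06), Hes1 (1.68e-06), Jag1 (1.62e-05), Notch4 (0.00351) and Notch2 (0.00356). Notch2 was lost without LP CD11b+ replicate 3 (0.01003) or LP CD103+ replicate 1 (0.0125), and Notch4 without the libraries with both Xist and Ddx3y (0.0114). The same 5 genes separated CD103+ from CD11b+ cells, where 27.2% of all genes passed. There the tissue effect was more positive in CD103+ for Jag1 (3.32) and Rbpj (1.35, SE 0.14, adjusted p = 7.09e-07) and more negative for Hes1 (-3.43, SE 0.40, adjusted p = 3.53e-06), Notch4 (-2.68, SE 0.57, adjusted p = 0.00125, or -3.27 without LP CD11b+ replicate 3) and Notch2 (-1.07, SE 0.23, adjusted p = 0.00128). DP differed from CD11b+ for Jag1 (1.52, SE 0.38, adjusted p = 0.00601) and Rbpj (1.01, SE 0.14, adjusted p = 3.20e-05), where 18.7% passed. DP differed from CD103+ for Hes1 (3.91, SE 0.42, adjusted p = 5.18e-06) and Jag1 (-1.80, SE 0.39, adjusted p = 0.00311), where 13.1% passed.

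Both DP differences of Jag1 were fragile. That from CD11b+ was lost in 7 of the 18 fits that left out 1 library (LP CD11b+ replicate 3, LP DP replicate 1, each LN CD11b+ replicate, LN DP replicates 2 and 3, with log2 values of 1.099 to 1.55), with total counts (1.21) and without the libraries with both Xist and Ddx3y (1.28). That from CD103+ was lost in 5 (LP CD103+ replicate 2, LP DP replicates 2 and 3, LN CD103+ replicate 1, LN DP replicate 1, with -1.59 to -1.69). For Dll4 the F test gave an adjusted p of 0.0475, and 7.61e-04 without LP DP replicate 3, the LP DP library with the most Dll4 reads. For Dll1 it gave 0.0236, and 0.00384 without LP CD103+ replicate 3. For Jag2 it gave 0.0208, and 0.00998 without LN CD11b+ replicate 1.

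Between subsets of the LP, 5 of the 10 genes passed for CD103+ against CD11b+ (Notch4 and Jag2 higher, Dll4, Jag1 and Dtx1 lower), where 15.7% of all genes passed. For DP against CD11b+ 4 passed (Notch4 and Jag2 higher, Dll1 and Hes1 lower), where 4.81% passed. For DP against CD103+ 3 passed (Jag1 higher, Jag2 and Hes1 lower), where 13.6% passed. Calls on the lowly read Delta-like ligands in LP rest on few reads. Dll4 in CD103+ against CD11b+ (log2 -2.97, SE 0.78, adjusted p = 0.00618) was lost without LP CD11b+ replicate 2 or 3, LP CD103+ replicate 1 or 2 (-2.30 to -3.01, adjusted p 0.0122 to 0.0471) and without the libraries with both Xist and Ddx3y (adjusted p = 0.0124), and it was -4.63 without LP CD103+ replicate 3. Dll1 in DP against CD11b+ (log2 -4.71, SE 0.91, adjusted p = 0.00209) was lost without LP CD11b+ replicate 1 or LP DP replicate 2 or 3 (adjusted p 0.0104 to 0.0133) and with the replicate block (-4.70, adjusted p = 0.0296). Conversely, Dll1 in CD103+ against CD11b+ stood at -2.12 (adjusted p = 0.0195) and passed without LP CD103+ replicate 2 (-3.32), Dll4 in DP against CD11b+ stood at -1.55 (adjusted p = 0.151) and passed without LP DP replicate 3 (-3.76), and Dtx1 in DP against CD103+ stood at 1.60 (adjusted p = 0.0271) and passed without LP CD11b+ replicate 2 (1.59).

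Between subsets of the LN, 7 of the 10 passed for CD103+ against CD11b+ (Jag1, Jag2 and Rbpj higher, Notch2, Dll1, Hes1 and Dtx1 lower), where 25.9% of all genes passed. For DP against CD11b+ 6 passed (the same 3 higher, and Dll1, Hes1 and Dtx1 lower), where 16.7% passed. For DP against CD103+ only Dll4 (higher) and Jag2 (lower) passed, where 6.53% passed. CD103+ and DP cells of the LN thus differed from CD11b+ cells in the same direction for Jag1, Jag2, Rbpj, Dll1, Hes1 and Dtx1, in comparisons that share the LN CD11b+ libraries. Jag1 was higher than in LN CD11b+ by 2.13 in CD103+ (SE 0.26, adjusted p = 2.60e-06) and by 1.66 in DP (SE 0.25, adjusted p = 5.16e-05).

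**Figure D4:**
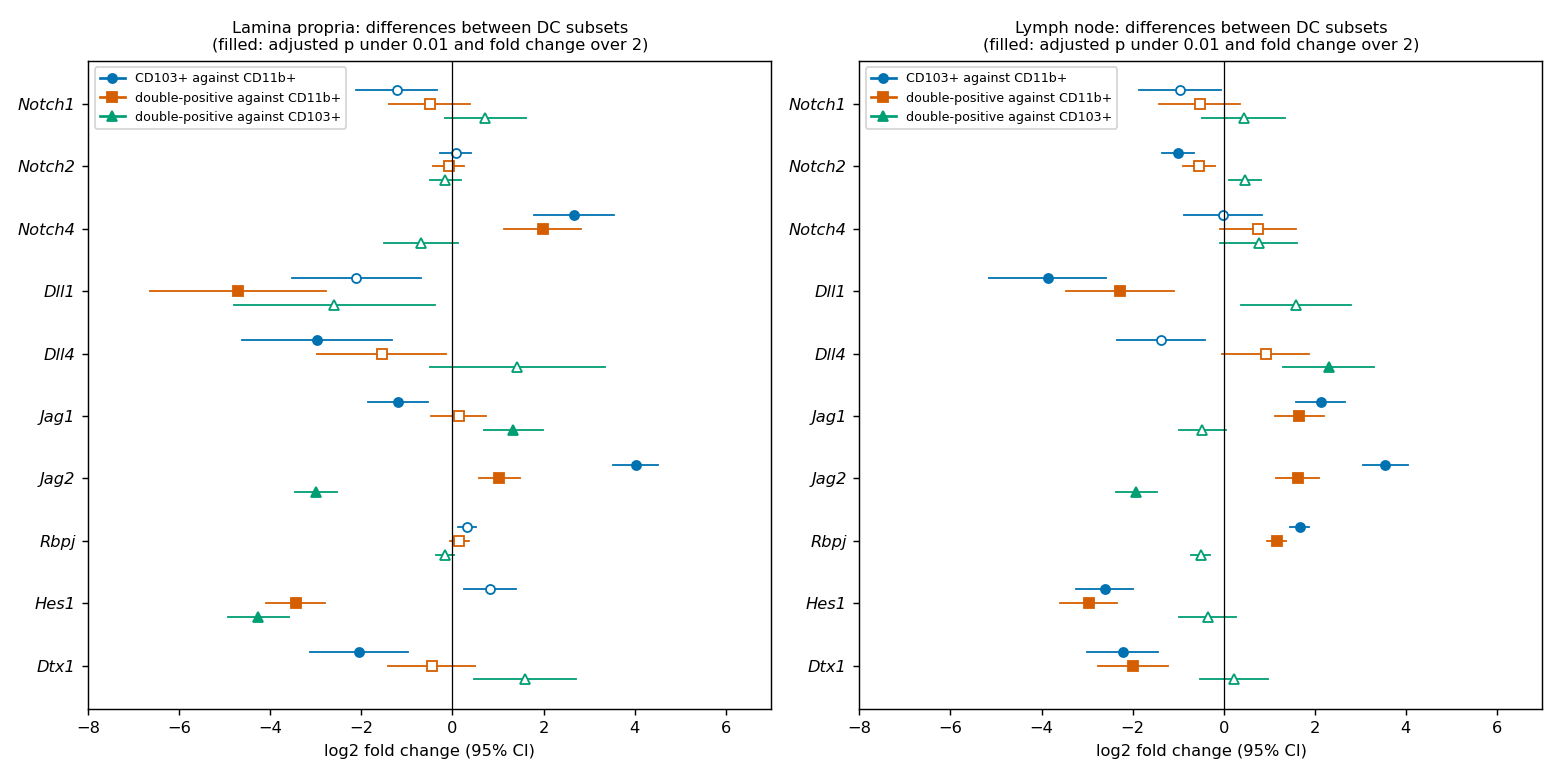
Log2 fold change between DC subsets within LP (left) and within LN (right) with 95% confidence intervals, filled where the gene passed the test. Hes1 is far left for DP in LP (-3.45 and -4.26) and for both CD103+ and DP against CD11b+ in LN (-2.62 and -2.97), and Rbpj is at 1.67 and 1.17 in LN.

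Of 63 other Notch pathway genes listed by function, 56 were tested, and 7 (Dll3, Dlk1, Hes5, Hey2, Heyl, Nrarp and Ptcra) had at most 11 reads in any library. In LN against LP, 11 passed in CD11b+ (6 higher, 5 lower), or 19.6% of those tested against 15.2% of all genes. In CD103+ 20 passed (11 higher, 9 lower), or 35.7% against 35%, and in DP 25 passed (12 higher, 13 lower), or 44.6% against 32.1%. The share in CD103+ was thus that of all genes. Their median log2 fold changes were 0.15, 0.06 and 0.24, against 0.03, 0.04 and 0.07 over all genes. Between LP subsets 10 (17.9%), 1 (1.79%) and 5 (8.93%) passed for CD103+ against CD11b+, DP against CD11b+ and DP against CD103+, where 15.7%, 4.81% and 13.6% of all genes did. Between LN subsets 16 (28.6%), 11 (19.6%) and 6 (10.7%) passed in the same order, where 25.9%, 16.7% and 6.53% did. The counts by function that follow are for LN against LP and read against the same 15.2%, 35% and 32.1% of all genes in CD11b+, CD103+ and DP.

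Of the 5 genes that modify the sugars of the receptor, Poglut1, which adds O-glucose to its EGF repeats, rose in LN in all subsets, by 1.78 in CD11b+, 3.33 in CD103+ and 3.28 in DP (SE 0.12 each, adjusted p = 9.34e-09, 1.30e-12 and 2.62e-12). The Fringe glycosyltransferases, which tune the choice between Delta-like and Jagged ligands, did not move together. In DP cells Lfng rose (1.20, SE 0.19) and Mfng fell (-1.19, SE 0.15), and Rfng fell in CD103+ (-1.39, SE 0.10) and DP (-1.02, SE 0.09). Mfng was also lower in CD103+ than in CD11b+ cells of both tissues (-1.26 in LP and -1.96 in LN).

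Of 10 genes of receptor proteolysis, 1 (10%) passed in CD11b+, 2 (20%) in CD103+ and 3 (30%) in DP. A list of 10 is too short to set these shares apart from those of all genes. Aph1b, a subunit of gamma-secretase, fell in all (-1.46, -1.40 and -2.12, SE 0.16 each). Its relative Aph1c fell in CD103+ (-2.05, SE 0.19) and DP (-1.84, SE 0.19), and the presenilin gene Psen2 rose in DP (1.68, SE 0.11). Psen2 was also higher in CD103+ than in CD11b+ cells of LP (1.55) and LN (1.66).

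Of 15 genes of the nuclear complex and its corepressors, 3 (20%) passed in CD11b+ and 7 (46.7%) in each of CD103+ and DP. The coactivator Maml2 rose in all subsets (1.36, 2.21 and 2.53, SE 0.32 to 0.34), while Maml3 fell in DP (-3.50, SE 0.52, adjusted p = 1.97e-05). The Groucho-type corepressor Tle1 fell in all (-1.02, -3.60 and -1.75), and Tle2 rose in CD103+ (2.57, SE 0.75) and DP (2.99, SE 0.71).

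Of 14 genes of endocytosis, ubiquitination and inhibition, 2 (14.3%), 4 and 4 (28.6% each) passed, which is near the shares of all genes. Dtx4, a relative of Dtx1, fell in all subsets (-2.53, -1.98 and -3.53, SE 0.21 to 0.22), opposite in sign to Dtx1, and the Neuralized-type gene Neurl3 fell in all (-1.77, -1.75 and -2.61, SE 0.08 to 0.09). Neurl1a passed as higher in LN CD103+ and LN DP, with 38 and 29 reads over 3 libraries against 1 read in each matching LP group, too few for a fold.

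Of 13 other target genes 8 were tested, and 3 (37.5%), 4 (50%) and 5 (62.5%) passed. Il2ra, the alpha chain of the IL-2 receptor, rose by 4.65, 5.38 and 6.15 (SE 0.26 to 0.30) in CD11b+, CD103+ and DP, and Gata3, a T cell transcription factor, rose by 4.15, 4.52 and 4.55 (SE 0.60 to 0.67). Myc fell in all (-1.45, -1.57 and -3.04) and the cyclin gene Ccnd1 fell in CD103+ (-2.82, SE 0.18) and DP (-1.06, SE 0.16). The summed T cell list was higher in LN by the ranges given above, and its part in the rise of Il2ra and Gata3 was not tested.

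**Figure D5:**
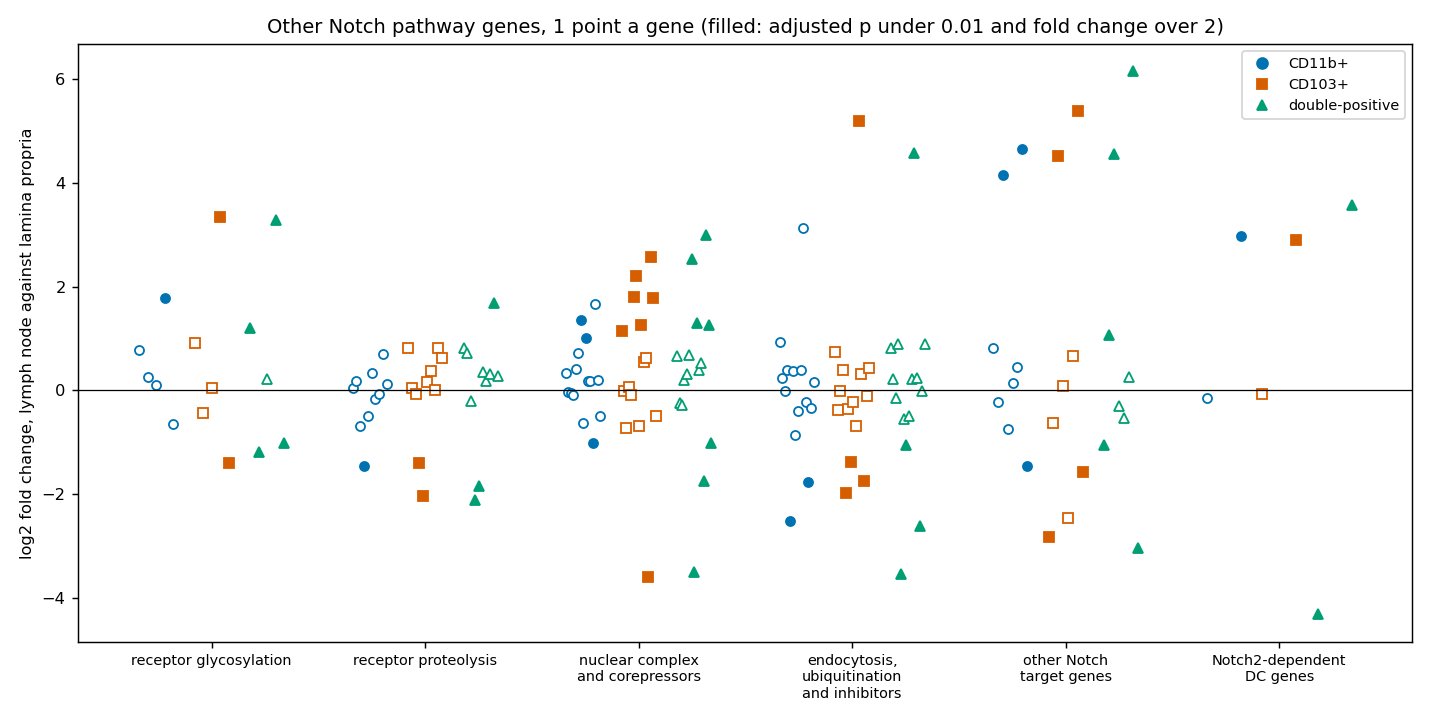
Log2 fold change of LN against LP for the other Notch pathway genes tested, by functional list and subset, 1 point a gene, filled where it passed the test. Il2ra and Gata3 are the highest filled points of the target list (4.15 to 6.15), and Clec4a4 is the lowest point of the plot, in DP cells (-4.32).

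The DC genes Esam and Clec4a4, known to depend on Notch2 in DCs, went different ways. Esam was 8.98 ± 4.05 CPM (SD, n = 3) in LP CD11b+, 27.0 ± 11.8 in LP CD103+ and 15.7 ± 2.34 in LP DP, and 70.6 ± 9.87, 199 ± 9.30 and 187 ± 16.6 in the same subsets of LN. It rose by 2.97, 2.89 and 3.57 on the log2 scale (SE 0.27 to 0.28). Clec4a4 was 63.7 ± 22.8 CPM in LP CD11b+, 0.818 ± 0.144 in LP CD103+ and 125 ± 19.7 in LP DP. In LN it was 57.8 ± 13.5, 0.788 ± 0.331 and 6.29 ± 1.60. It fell by 4.32 on the log2 scale in DP (SE 0.28, adjusted p = 1.27e-09), and its tissue effect in DP differed from that in CD11b+ by -4.18 (SE 0.36, adjusted p = 4.84e-07).

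For the 3 members that varied most over the 6 groups (by the F statistic: Jag2, Jag1 and Dtx1), the genes with the most similar profile over the 18 libraries were named from the 17074 tested. Pearson's r of log2 CPM was 0.949 for Numb with Jag2, followed by Map4k5 (0.947) and Zfp276 (0.946). Numb, an inhibitor of Notch, was 57.9 ± 2.12 CPM in LP CD103+ and 53.7 ± 12.5 in LN CD103+ against 21.5 to 31.6 in the means of the other groups, and was higher in CD103+ than in CD11b+ by 1.08 in LP (SE 0.14) and 1.32 in LN (SE 0.14). Jag1 was most like Tmem200b (0.992), Tank (0.988) and Tmem123 (0.987), and Dtx1 most like Ets1 (0.982), Gimap3 (0.982) and Gm6637 (0.980). The libraries share their groups, so these values describe a common group pattern.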

How the data were processed

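Gene counts were analysed in 18 Smart-seq v4 libraries (HiSeq4000), 3 in each of 6 groups. The authors deposited raw read counts per Ensembl gene, and the submitters' processing notes name FastQC 0.11.7, STAR 2.6 and GRCm38. For the study's own DC libraries the methods state uniquely aligned reads and counting without strand. Positions and exon lengths came from GENCODE vM21. Counts were fitted in edgeR 4.0.16 (R 4.3.3) with TMM factors, filterByExpr by group (17074 genes tested) and the quasi-likelihood F test over all 18 libraries, with Benjamini-Hochberg adjustment over all genes tested. A gene passed at an adjusted p under 0.01 and a fold change over 2 (no fold limit for differences between tissue effects). Fits were tested on simulated data. Replicates differed by more than sampling noise (chi-square per gene 14.9 to 64.9).

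Alternatives were DESeq2 1.42.0, its size factors, total counts, other filters, an adjusted p under 0.05, only the groups compared, a replicate block and leaving out each library. Leaving out the libraries with both Xist and Ddx3y was chosen after seeing the data. Numbers were taken to pair 2 groups where every same-numbered pair of libraries deviated together with r over 0.1, which held for LP CD11b+ with LP CD103+ (r 0.152 to 0.208) and LP CD103+ with LP DP (r 0.125 to 0.189), and for no other pair of groups. LP CD11b+ with LP DP had r 0.0750 to 0.2495. This pairing is taken from the data and not from the labels. The members, lists and motifs were chosen with earlier results of these data known. All members are named, and of each list up to 3 called genes with the largest change per tissue comparison, with Esam and Clec4a4, except for an item that is not reported here.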

Additional observations from a re-analysis of the deposited data

Results flagged for a closer look

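The change from LP to LN differed between the 3 DC subsets for 5 of the 10 genes, by an F test of the difference itself in edgeR (adjusted p, all genes tested). By the same test 31.5% of all genes passed. The adjusted p was 1.60e-06 for Rbpj, which was -0.94 in CD11b+, 0.42 in CD103+ and 0.08 in DP on the log2 scale. For Hes1 it was 1.68e-06, with -3.24 in CD103+ against 0.19 and 0.67 in CD11b+ and DP. For Jag1 it was 1.62e-05, with 2.56, 5.89 and 4.09 in CD11b+, CD103+ and DP. For Notch4 it was 0.00351, with 0.06, -2.63 and -1.17, and it was 0.0114 without the libraries with both Xist and Ddx3y. For Notch2 it was 0.00356, with 0.10, -0.98 and -0.36. This call was lost without LP CD11b+ replicate 3 (0.01003) or LP CD103+ replicate 1 (0.0125).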

How the results depend on the processing

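The rise of Dll1, Dll4, Jag1 and Dtx1 in LN was called in all 3 subsets under every alternative run. Over all alternatives, 3402 tests of members kept their side of the threshold, 66 lost and 60 gained the call, and no called value changed sign. Values that were not called could change sign. For example, the tissue effect of Hes1 in CD11b+ ran from -0.06 to 0.41 over the fits that left out 1 library. Fitting only the groups compared left 3 members called in LP CD103+ against CD11b+ (5 in all libraries) and 1 in LP DP against CD11b+ (4), and 506 of all genes in the latter (821). The calls it lost were those of Dll4, Dtx1 and Jag1 (CD103+ against CD11b+), Notch4, Dll1 and Jag2 (DP against CD11b+) and Jag1 (DP against CD103+) in LP and Notch2 in LN CD103+ against CD11b+, with log2 values of the same sign. Total counts, or dropping the libraries with both Xist and Ddx3y, left 1 member (2) for the tissue effect of DP against that of CD11b+, and the latter left 1 (2) in LN DP against CD103+. For the tissue effect of DP against that of CD103+, 4 members (2) were called without a filter, by DESeq2 and at an adjusted p under 0.05. Of all genes, 2109, 3038 and 3659 (2236) were called there in the same order. The threshold of 0.05 called 8 members (5) and 7674 of all genes (5376) in the F test. It also called 1289 of all genes (821) in LP DP against CD11b+ and 4986 (3192) in the tissue effect of DP against that of CD11b+. Leaving out 1 library gave 2 to 6 members in LP CD103+ against CD11b+, 2 to 4 in LP DP against CD11b+, 1 to 2 in LN DP against CD103+, and 1 to 3 for either difference of tissue effects of DP. The replicate block within LP called 4 members in CD103+ against CD11b+ and 2 (3) in DP against CD103+, as given in the report, and changed no other call of a member in those comparisons. In LP DP against CD11b+, where 1 of the 3 same-numbered pairs correlated by less than 0.1 (r 0.0750 to 0.2495), it called 3 (4) and lost Dll1, and in LN CD103+ against CD11b+, where the libraries share only a number, it lost Notch2 (-0.99) and gained Dll4 (-1.36). Beyond fewer libraries, the cause of these changes was not tested. With total counts the median log2 fold change of all genes was -0.56 (TMM -0.13) in LN CD103+ against CD11b+ and -0.44 (-0.08) in LN DP against CD11b+, and with it Rbpj in the latter was 0.80. Dll1 and Dll4 in LP are limited by depth, at 0 to 65 reads per library.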

Other observations

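Over the 18 libraries, the members that rose in LN were compared by their profiles of log2 CPM as a description: Pearson's r over the 6 pairs of Dll1, Dll4, Jag1 and Dtx1 ran from 0.647 (Jag1 with Dll1) to 0.900 (Dtx1 with Dll4). The lowest value among pairs of members was -0.702, for Jag1 with Notch2. The libraries share tissue and subset, so these values restate the group pattern.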
